A study of Xenopus tropicalis with 6 samples.

Results

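The genes described here are the 77 gene models, of 28165 in the count tables, whose transcripts were at least 3 times as abundant in replicate 1 as in replicate 2 under both treatments. They were chosen by their own CPM, the read count per 1000000 reads of a library. A member had a mean of at least 5 CPM over the 6 libraries, a ratio of replicate 1 over replicate 2 of at least 3 in both treatments (after adding 0.1 CPM), and a replicate 3 that lay between the other libraries of its group in both. The 100 identifiers with the highest mean control CPM were left out. So were identifiers whose Tet2/Tet3 over control ratio was at most 0.5 in all 3 same-numbered pairs, or at least 1.5 in all 3. The replicate values below are therefore a description of how the members were chosen, and no test was made on them.

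The libraries are poly(A) RNA from Xenopus tropicalis, the western clawed frog, taken as whole blastulae at stage 9. Tet2/Tet3 embryos (3 libraries) had been injected at the 1-cell stage, into the animal hemisphere, with 30 ng of a Tet2 and 30 ng of a Tet3 Morpholino in 5 nl. Control embryos (3 libraries) received 60 ng of a standard control Morpholino in the same volume. Both Tet Morpholinos are antisense oligonucleotides that cover the start codon, so they act on translation and need not lower the targeted mRNA. Each library pooled 50 embryos and held 37973110 to 44792849 counts, so 1 CPM stood for 38.0 to 44.8 reads. The labels do not give the strain, nor say what libraries with the same replicate number have in common.

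As background, the frog blastula carries a large store of maternal mRNA laid down in the egg, and during these stages it is cleared while the embryonic genome becomes active. Transcripts of newly active genes climb steeply at this time. The TET enzymes oxidise 5-methylcytosine in DNA, a step on the way to its removal. Gene names do not accompany the identifiers (Xetro, a letter and a number) in the files. A search of RefSeq's genes (assembly UCB_Xtro_10.0) found 0 of all 28165 identifiers, and so 0 of the 77. No function can therefore be given for any member. The tissue label could not be set against marker genes for the same reason.

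Of the 9614 identifiers with a mean of at least 5 CPM, 135 had a replicate ratio of at least 3 in Tet2/Tet3 embryos (1.40%) and 104 in controls (1.08%). In 87 of them both treatments passed. Replicate 3 fell outside the range of the other libraries for 9 of the 87, in most cases above replicate 1 in Tet2/Tet3 embryos (5 identifiers). Of the 78 left, none was among the 100 most abundant, 1 was removed as lower in all 3 pairs and 0 as higher, so the conditions on treatment shaped the list very little. The opposite pattern, with replicate 2 at least 3 times replicate 1, was met by 36 identifiers in Tet2/Tet3 embryos and 30 in controls, and by 16 under the mirrored rule as a whole. At the edge of the rule, the member with the lowest ratio had 5.07 in Tet2/Tet3 embryos and 3.05 in controls. The nearest identifier outside it had 3.10 in Tet2/Tet3 embryos and 2.97 in controls.

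Members were transcripts of modest abundance that were scarce in replicate 2. The median member had 24.0, 1.07 and 12.7 CPM in Tet2/Tet3 replicates 1, 2 and 3, and 40.8, 2.23 and 11.6 CPM in control replicates 1, 2 and 3. Replicate 1 was thus high, replicate 3 intermediate and replicate 2 low under both treatments. The median of the members' mean CPM was 15.1, against 52.5 for all 9614 identifiers of at least 5 CPM. Together the 77 members made up 0.358%, 0.0225% and 0.178% of the counts of Tet2/Tet3 replicates 1, 2 and 3. In control replicates 1, 2 and 3 they made up 0.489%, 0.0373% and 0.170%. In bulk RNA of whole embryos, fewer expressing cells and less RNA per cell cannot be told apart.

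**Figure D1:**
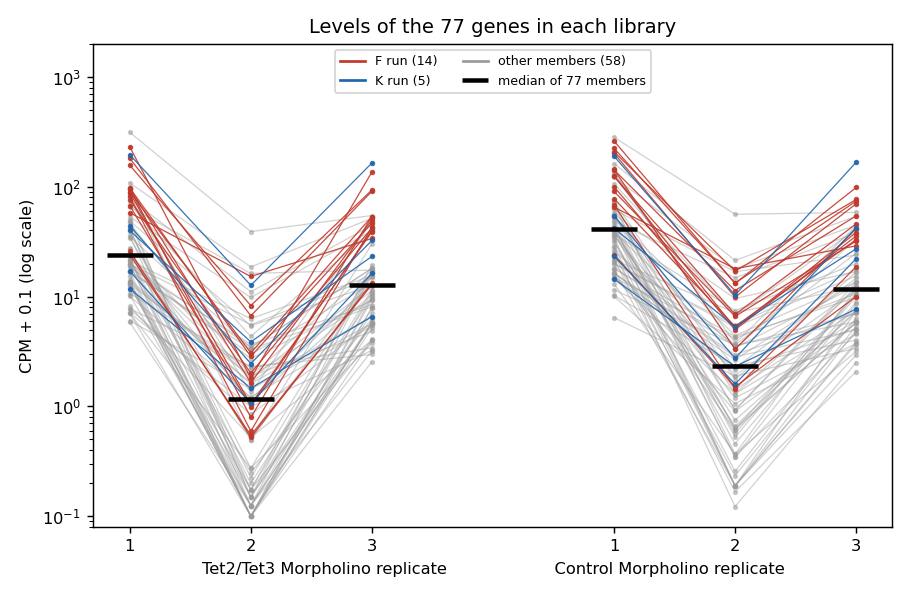
CPM + 0.1 (log scale) of each member in the 6 libraries, Tet2/Tet3 Morpholino left and control right, 1 line per gene and treatment, coloured by the runs of neighbouring identifiers described in the text. Black bars are medians over the 77 members, 24.0, 1.07 and 12.7 CPM in Tet2/Tet3 replicates 1 to 3 and 40.8, 2.23 and 11.6 CPM in control replicates 1 to 3 (before 0.1 is added).

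The replicate difference spanned a wide range and had a similar rank order under both treatments. The median ratio of replicate 1 over replicate 2 was 27.2-fold in Tet2/Tet3 embryos (3.36 to 336) and 18.4-fold in controls (3.05 to 240), all on CPM + 0.1. The order of the treatments depends on what is added: on CPM + 1 the median log2 ratio was 3.75 in Tet2/Tet3 embryos and 3.82 in controls, against 4.77 in Tet2/Tet3 embryos and 4.20 in controls on CPM + 0.1. The top Tet2/Tet3 value rested on 2 reads in replicate 2, and the plain CPM ratio of that gene, 1013, had a 95% exact interval of 280.1 to 8372. That interval covers counting error only, in a gene picked as the highest. Across all 9614 identifiers of at least 5 CPM the median ratio was 1.05 in Tet2/Tet3 embryos and 1.01 in controls. In 51 members the ratio was at least 10-fold in both treatments, and in 55 of 77 it was larger in Tet2/Tet3 embryos (38 of 77 on CPM + 1). Across members the log2 ratios of Tet2/Tet3 and control embryos correlated at Pearson r = 0.89 and Spearman rho = 0.90 (n = 77 genes from the same libraries, which are not independent). The rule put a floor under both ratios. Where replicate 2 was near 0, each ratio also depended on the replicate 1 level of the gene and the 0.1 CPM added.

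The largest of these ratios rest on few reads in replicate 2. In Tet2/Tet3 replicate 2, 38 members lay under 1 CPM, and in control replicate 2, 25. Tet2/Tet3 replicate 2 had 0 counts for 8 members, which had 291 to 916 counts in Tet2/Tet3 replicate 1 and 1 to 29 counts in control replicate 2. Set against 3 counts, the limit that a count of 0 allows in that library (0.0743 CPM), these 8 were at least 93.5-fold to at least 294-fold higher in replicate 1. All 8 lie above the median ratio, so these bounds cannot move it. A further 12 members had 1 to 3 counts in Tet2/Tet3 replicate 2, and 52 of the 77 had 10 or more in both replicate 2 libraries.

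**Figure D2:**
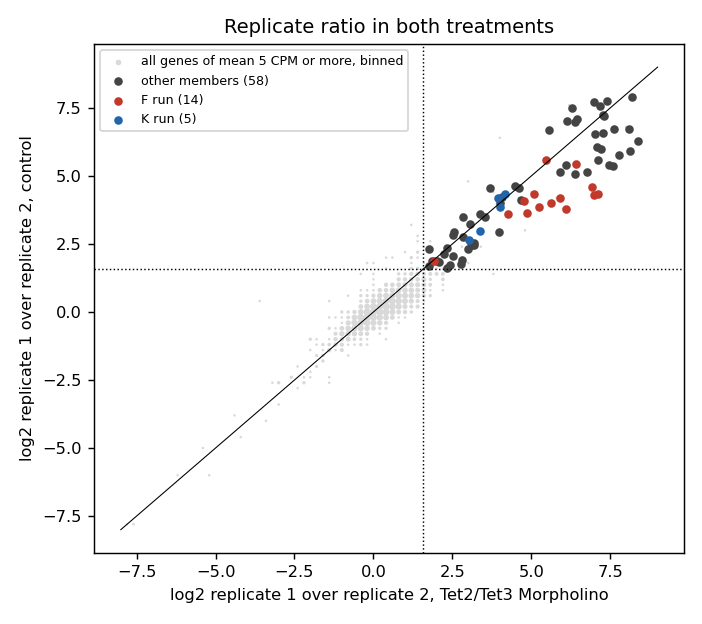
Log2 ratio of replicate 1 over replicate 2 (CPM + 0.1) in Tet2/Tet3 embryos (x axis) and control embryos (y axis). Coloured and dark points are the 77 members, pale points are bins of all 9614 identifiers of at least 5 CPM, dotted lines mark the 3-fold threshold of the rule, and the solid line marks equal ratios. In 55 of 77 members the ratio was larger in Tet2/Tet3 embryos, and in 38 of 77 on CPM + 1.

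The most abundant member, Xetro.A02849, had 313.6, 39.0 and 54.6 CPM in Tet2/Tet3 replicates 1, 2 and 3. In control replicates 1, 2 and 3 it had 282.7, 56.1 and 58.4 CPM. Replicate 3 lay close to replicate 2 in this gene, most of all in the control group. Its ratio of replicate 1 over replicate 2 was 8.05 in Tet2/Tet3 embryos (95% exact interval 7.64 to 8.48) and 5.04 in controls (4.83 to 5.26). These intervals cover counting error only.

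The largest replicate difference, as the mean log2 ratio of both treatments on CPM + 0.1, was in Xetro.F01987 (289-fold in Tet2/Tet3 embryos and 240-fold in controls). Its rank depends on the 0.1 CPM added. The gene had 36.0, 0.0248 and 16.2 CPM in Tet2/Tet3 replicates 1, 2 and 3, from 1506, 1 and 616 reads. In control replicates 1, 2 and 3 it had 45.2, 0.0893 and 7.32 CPM, from 1978, 4 and 286 reads. The gene was near its detection limit in replicate 2 of either group and well covered in replicates 1 and 3. With 1 read in the denominator, the plain CPM ratio in Tet2/Tet3 embryos, 1451, had a 95% exact interval of 260.1 to 57358. The plain control ratio of 507 had one of 197.6 to 1861. Both intervals cover counting error only, in a gene chosen for its ratio, and are no test of it.

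Identifiers of the members were not spread evenly. Those with the letter F supplied 24 of the 77 members (31.2%), against 8.02% of the 9614 identifiers of at least 5 CPM, and those with K supplied 13 (16.9%, against 10.1%). Members with the same letter and numbers at most 5 apart formed 2 runs of 3 or more, which were defined after the values were seen. The sources used here do not say how the numbers were given, so neighbouring numbers are not taken as neighbouring positions in the genome. How reads mapping to several places were counted is not given either, so near-identical copies within a run could share or lose reads.

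The longer run, called the F run here, reached from Xetro.F01936 to Xetro.F01957 and held 14 members among 22 identifiers. Of the other 8, 6 had a mean under 5 CPM, and 2 of those 6 also had replicate ratios of at least 3 in both treatments. Another, with a mean of 21.8 CPM, had ratios of 14.6 in Tet2/Tet3 embryos and 21.8 in controls and was the identifier removed as lower in all 3 pairs. The last, with a mean of 28.5 CPM, had ratios of 1.89 in Tet2/Tet3 embryos and 1.63 in controls. The identifier just before the run, with a mean of 137 CPM, had ratios of 1.20 in Tet2/Tet3 embryos and 1.07 in controls. Outside the run the pattern was also seen in Xetro.F01930, whose mean of 2.70 CPM was under the minimum of the rule. It had 6.14, 0 and 1.29 CPM in Tet2/Tet3 replicates 1, 2 and 3, against 7.34, 0.0223 and 1.38 CPM in control replicates 1, 2 and 3. Xetro.F01931 to Xetro.F01935 and Xetro.F01958 to Xetro.F01963 did not reach a ratio of 3 in both treatments. Among them, Xetro.F01963, with a mean of 79.5 CPM, had ratios of 0.95 in Tet2/Tet3 embryos and 1.06 in controls.

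**Figure D3:**
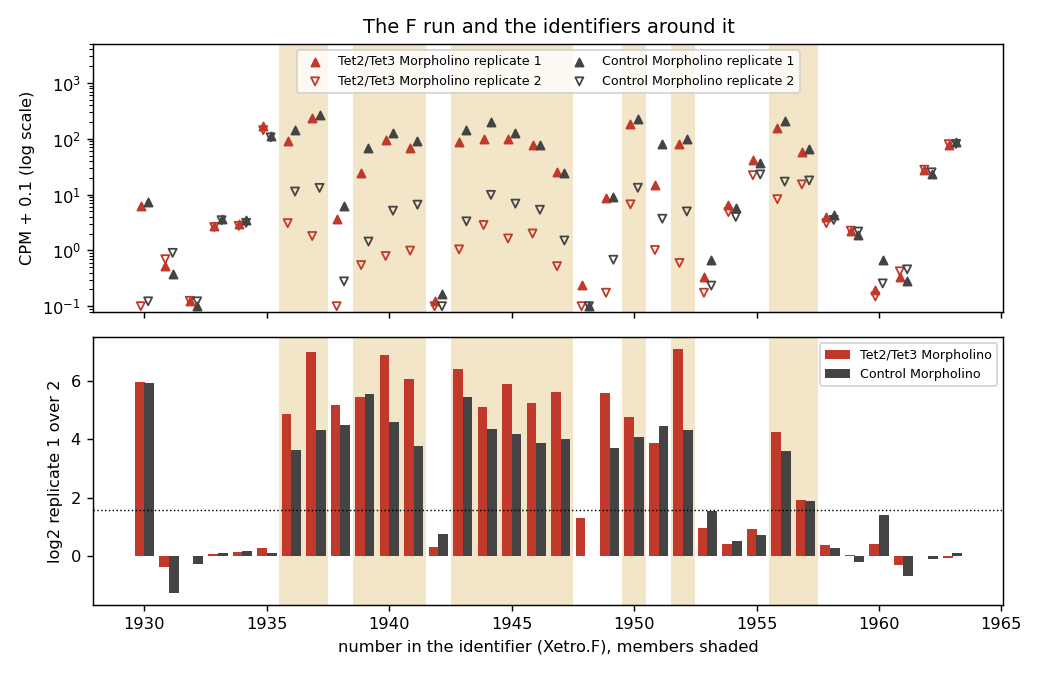
The F run and the identifiers around it, by the number in the identifier, with members shaded. Above, CPM + 0.1 (log scale) in replicates 1 and 2 of each treatment. Below, the log2 ratio of replicate 1 over replicate 2, with the 3-fold threshold dotted. Of the 22 identifiers from the first to the last shaded one, 14 were members.

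The F run supplied a large share of the members' reads. Summed over its 14 members it held 1372, 44.7 and 747 CPM in Tet2/Tet3 replicates 1, 2 and 3, against 1862, 116 and 657 CPM in control replicates 1, 2 and 3. The sum of replicate 1 was 30.7 times that of replicate 2 in Tet2/Tet3 embryos and 16.0 times in controls. The run held 38.3%, 19.9% and 42.0% of the members' CPM in Tet2/Tet3 replicates 1, 2 and 3, and 38.1%, 31.2% and 38.6% in control replicates 1, 2 and 3. Its share was thus lowest in replicate 2 of either treatment. In 13 of the 14 members the replicate ratio was larger in Tet2/Tet3 embryos, and 13 had at least 10-fold in both treatments. Tet2/Tet3 replicate 2 held the lowest counts of the run, and no member of it had fewer than 17 reads in any library.

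The shorter run, called the K run, consisted of 5 consecutive identifiers from Xetro.K00769 to Xetro.K00773, all of them members. Their sum was 309, 21.0 and 243 CPM in Tet2/Tet3 replicates 1, 2 and 3, against 324, 21.8 and 267 CPM in control replicates 1, 2 and 3. Within each replicate number the sums of the treatments lay closer together than replicate 2 lay to the other replicates. Replicate 1 was 14.7 times replicate 2 in Tet2/Tet3 embryos and 14.9 times in controls. Most of these reads came from Xetro.K00769, with 195.9, 12.6 and 164.6 CPM in Tet2/Tet3 replicates 1, 2 and 3, and 190.1, 10.2 and 167.3 CPM in control replicates 1, 2 and 3. In this gene replicate 3 was nearly as high as replicate 1. The next identifier, Xetro.K00774, was under the minimum with a mean of 2.56 CPM and had ratios of 13.5 in Tet2/Tet3 embryos and 15.4 in controls. Xetro.K00775 to Xetro.K00779 did not reach a ratio of 3 in both treatments. The identifier just before the run, Xetro.K00768, with a mean of 49.0 CPM, had ratios of 1.35 in Tet2/Tet3 embryos and 1.15 in controls. The 58 members outside the runs summed to 1900, 159 and 788 CPM in Tet2/Tet3 replicates 1, 2 and 3, against 2706, 235 and 778 CPM in control replicates 1, 2 and 3.

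The rule fixed that replicate 3 lay between the others, but not where. On the log2 scale, with replicate 2 at 0% and replicate 1 at 100%, replicate 3 of the median member lay at 81.0% in Tet2/Tet3 embryos and at 61.6% in controls. It lay closer to replicate 1 in Tet2/Tet3 embryos than in controls in 66 of 77 members. Each position rests on 1 replicate 3 library per group. It is computed from the same values as the Tet2/Tet3 over control ratios given below, so it is no separate result. Replicate 3 was over 75% of the way in 51 members in Tet2/Tet3 embryos and 9 in controls, and under 25% in 3 in Tet2/Tet3 embryos and 1 in controls. All 14 members of the F run were closer to replicate 1 in Tet2/Tet3 embryos, with medians of 83.5% in Tet2/Tet3 embryos and 65.1% in controls. In the K run this held for 2 of 5, with medians of 89.3% in Tet2/Tet3 embryos and 91.7% in controls. Across the 77 members the positions under both treatments correlated at Pearson r = 0.74 and Spearman rho = 0.69, again over genes of the same libraries.

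**Figure D4:**
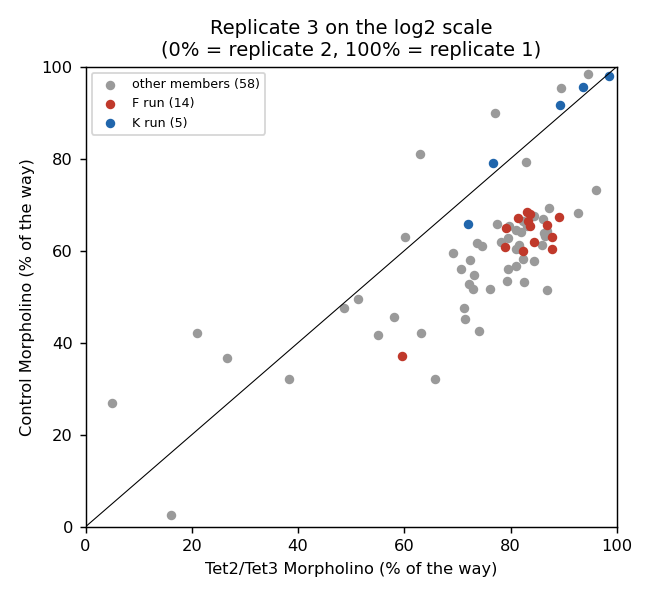
Position of replicate 3 between replicate 2 (0%) and replicate 1 (100%) on the log2 (CPM + 0.1) scale, in Tet2/Tet3 embryos (x axis) and controls (y axis), for each of the 77 members, with a line of equal positions. Most points, 66 of 77, lie below the line.

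The design asks how the transcriptome of Tet2/Tet3 Morpholino embryos differs from that of controls. For these members the Tet2/Tet3 over control ratio differed between the same-numbered pairs. On CPM scaled with TMM (trimmed mean of M values) factors, 61 of 77 members were lower in Tet2/Tet3 embryos in pair 1, 68 in pair 2 and 26 in pair 3. Of the 9614 identifiers of at least 5 CPM, 46.9%, 48.7% and 48.6% were lower in pairs 1, 2 and 3. The members' median log2 ratio was -0.37, -0.81 and 0.13 in pairs 1, 2 and 3, against 0.02, 0.01 and 0.01 over the 9614. TMM scaling raises these log2 ratios by 0.09, 0.15 and 0.14 over plain CPM, on which the members' medians were -0.46, -0.92 and -0.01, so the sign of pair 3 depends on the scaling. Many pair 2 ratios rest on few reads. In Tet2/Tet3 replicate 2, 38 members lay under 1 CPM and 20 had 3 or fewer counts. The size of the pair 2 ratio in such members depends on the 0.1 CPM added. In 39 of the 77 members (31 on plain CPM) the Tet2/Tet3 library was lower in pairs 1 and 2 and higher in pair 3, a pattern seen in 2.96% (2.59%) of the 9614. Members that were lower in all 3 pairs numbered 19 and members higher in all 3 numbered 3, on TMM-scaled CPM. The share lower in all 3 pairs was 36.1% of the 9614, and the share higher in all 3 is not given here. The rule removed only 1 identifier by this contrast, but it chose members on CPM of the same 6 libraries. These counts are therefore a description and were not tested, and the shares of the 9614 are not an independent comparison.

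The pair values of the F run spread most. It had median log2 ratios of -0.29, -1.59 and 0.41 in pairs 1, 2 and 3, and 14 of its 14 members were lower in Tet2/Tet3 embryos in pair 2 while 2 were lower in pair 3. In the K run the medians were -0.20, -0.31 and -0.09. The 58 members outside the runs had medians of -0.50, -0.72 and 0.13. The difference between the runs was not tested. The 16 genes of the mirrored rule had medians of -0.16, -0.08 and -0.07, and these were not compared by a test either.

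**Figure D5:**
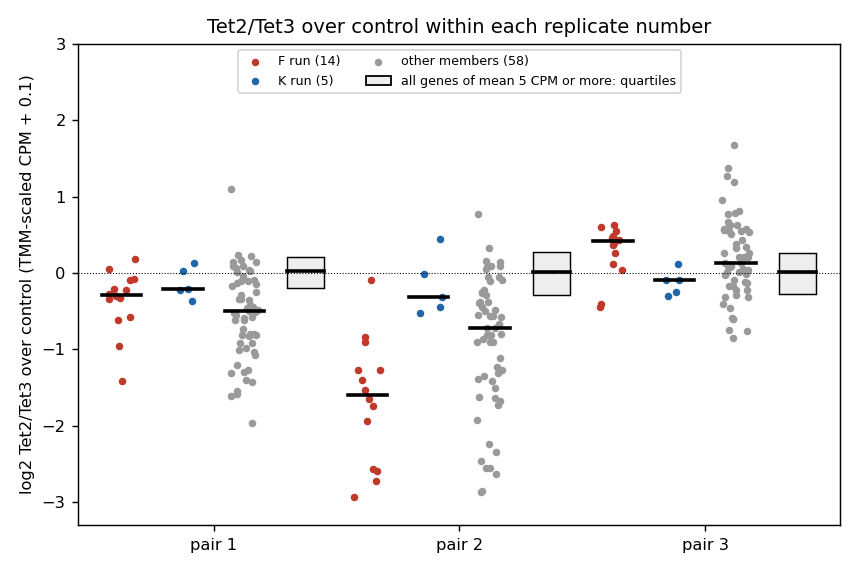
Log2 ratio of Tet2/Tet3 over control embryos within each replicate number (TMM-scaled CPM + 0.1) for members of the F run, the K run and the rest, with black bars at the medians. Boxes give the quartiles and median of all 9614 identifiers of at least 5 CPM. The F run had medians of -0.29, -1.59 and 0.41 in pairs 1, 2 and 3.

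No member passed the test between treatments with group alone, which leaves out the pairing by replicate number. With edgeR's quasi-likelihood test over 13221 genes, which included all 77 members, 0 were called lower, against 5.48% of all tested genes, and 0 higher, against 6.01% (Benjamini-Hochberg adjusted p under 0.05, n = 3 per group). At an unadjusted p under 0.05 there were 0 members too, by edgeR and by DESeq2, and DESeq2 called 0. The shares of all genes at these settings are not given here, so nothing is read from these counts. The lowest adjusted p of a member was 0.34. The libraries of both groups overlapped in all 77, whereas they did not overlap in 33.1% of the tested genes. A spread of at least 3-fold within each group, which the rule demands, leaves little room for either outcome. The median fitted log2 fold change of the members was -0.27, against -0.01 over all tested genes. It was 0.99 without control replicate 1 and 0.25 without Tet2/Tet3 replicate 2, against -1.11 without Tet2/Tet3 replicate 1 and -0.75 without control replicate 2. The rule puts replicate 1 above replicate 2 in each group. Leaving out either from 1 group therefore shifts the median in a direction set in advance, and nothing is read from these shifts. It was -0.22 without Tet2/Tet3 replicate 3 and -0.47 without control replicate 3.

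With the replicate number as a block, 16 members were called lower, against 23.8% of all tested genes, and 2 higher, against 23.4% (edgeR, adjusted p under 0.05, n = 3 pairs). As the rule used this contrast, nothing is read from these counts. The 16 falls ranged from -0.32 to -1.42 on the log2 scale with a median of -0.82, or 1.77-fold, and 3 of them were at least 2-fold. Of the 16, 15 were lower in all 3 pairs on TMM-scaled CPM, but they were called on those same pairs, so this is no separate support. The F run held 2 of the 16 and the K run 1. Without pair 1, 2 or 3, the blocked fit called 10, 24 or 46 members lower, against 24.7%, 19.2% or 18.2% of the genes tested in those fits. It called 6, 4 or 2 members higher, against 25.2%, 18.1% or 16.4%. Each of these fits had 1 pair fewer than the full fit. The number of members called lower depended on which pair was left out and was highest without pair 3, and the reason was not tested.

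The lowest blocked fold change was in Xetro.K00998. It had 5.73, 0.0248 and 3.11 CPM in Tet2/Tet3 replicates 1, 2 and 3, against 24.1, 0.134 and 5.28 CPM in control replicates 1, 2 and 3. Each Tet2/Tet3 library was below its partner, but the Tet2/Tet3 replicate 1 and 3 values lay within the range of the controls. Its fitted log2 fold change with the block was -1.42 (SE 0.27, edgeR adjusted p = 0.0033) and -1.62 with group alone (SE 1.69, adjusted p = 0.61). Replicate 2 rested on 1 read in Tet2/Tet3 embryos and 6 in controls. Without pair 1 the blocked log2 fold change was -0.69 and the adjusted p 0.056.

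The highest was in Xetro.D01521, with 12.9, 1.78 and 4.71 CPM in Tet2/Tet3 replicates 1, 2 and 3, against 6.34, 1.79 and 3.28 CPM in control replicates 1, 2 and 3. Replicates 1 and 3 were higher in Tet2/Tet3 embryos, while replicate 2 was level on plain CPM. Its fitted log2 fold change with the block was 0.73 (SE 0.18, edgeR adjusted p = 0.0097) and 0.87 with group alone (SE 0.74, adjusted p = 0.52). Without pair 1 the blocked value was 0.45 and the adjusted p 0.086. The other member called higher was Xetro.K00769, whose values are given above, with a blocked log2 fold change of 0.20 (adjusted p = 0.044, edgeR). Its log2 ratios in pairs 1, 2 and 3 were 0.13, 0.44 and 0.12 on TMM-scaled CPM and 0.04, 0.29 and -0.02 on plain CPM, so its direction in pair 3 depends on the scaling.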

How the data were processed

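The authors deposited whole-number read counts per gene model, 1 file per library without a header. Per the submitters' processing notes, featureCounts 1.5.1, Subread, SAMtools 1.3.1, STAR 2.5.4b, FastQC and bcl2fastq were used, with no role stated for each. Not given in the sources used here are the build, annotation, strandedness of counting and treatment of reads with several matches, so overlapping, antisense and near-identical genes are uncertain. Groups and replicate numbers came from the sample titles.

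From the counts, CPM and the rule for members were computed with Python 3.11.15. Treatment was tested with edgeR 4.0.16 in R 4.3.3 (filterByExpr with a minimum count of 10, TMM factors, glmQLFit and glmQLFTest on group alone, Benjamini-Hochberg adjustment over the 13221 genes kept), tested on simulated data. The SE given for an edgeR log2 fold change is its absolute value divided by the square root of the test's F statistic. DESeq2 1.42.0, other scalings and filters, the replicate block and fits without single libraries were alternatives. The labels call the samples biological triplicates. Deviations from the group means correlated at 0.74 to 0.87 between same-numbered libraries, each above 0.1, so the numbers were taken to pair them. Within groups, the variance between libraries was 26.9 to 105 times that of counting noise (chi-square per degree of freedom). Each library was kept as a sample of its own.

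The members were chosen with earlier results of these data known, and the runs of identifiers after the values were seen. The genes named are the members with the highest mean CPM, the largest mean log2 replicate ratio, and the lowest and highest blocked fold change. The identifiers that bound or flank the runs, and Xetro.K00769 as a call, were named after their values were seen. Gene lists by name were not analysed here.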

Additional observations from a re-analysis of the deposited data

How the results depend on the processing

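The count of members called with group alone was 0 lower and 0 higher. It was the same with DESeq2, RLE or upper-quartile factors, a minimum of 1 CPM in 3 libraries and all genes unfiltered. It was 0 too with 1 library left out at a time (in each of the 6 fits) and before the treatment exclusion. Without the F run it could only be 0, as no member had been called. The spread of at least 3-fold within each group, which the rule demands, leaves little room for a call. Nothing is therefore read from these repeated counts of 0. The shares of all genes called under the other tools, scalings and filters, or without 1 library, are not given here. The replicate block gave 16 lower and 2 higher, against 23.8% and 23.4% of all tested genes (edgeR). DESeq2 with the block gave 19 and 3. Its share of all genes is not given here, so nothing is read from those counts. Leaving out pair 1, 2 or 3 with the block gave 10, 24 or 46 lower and 6, 4 or 2 higher, from 1 pair fewer than the full fit. With the block and without the F run, 14 were lower and 2 higher. The median log2 fold change of -0.27 lay between -0.43 and -0.26 under the other scalings, filters, tools, the block and member choices, between -1.11 and 0.99 with 1 library left out, and was -0.11, -0.18 and -0.55 with the block without pair 1, 2 and 3. The rule gave 158 members at 2-fold and 175 at a mean of 1 CPM, and 55 to 85 under the other 7 changes to it. The median log2 ratio of replicate 1 over 2 was 4.77 in Tet2/Tet3 embryos and 4.20 in controls, 4.69 and 4.18 with TMM scaling, and 3.75 and 3.82 with a pseudocount of 1, which turned the order of the treatments. Replicate 3 lay at 81.8% and 61.4% of the way with TMM scaling, and at 73.8% and 56.1% with a pseudocount of 1, where 66 of 77 members were still nearer to replicate 1 in Tet2/Tet3 embryos. These settings, and a change of 1.5 times as the size from which such a replicate median counts as moved, were chosen after seeing the data. For the median log2 fold change by treatment that size was 0.47, the SD over the 3 pairs of the members' median log2 ratio. Xetro.A02849 had a log2 fold change of 0.14 with group alone, -0.021 with the block (edgeR), -0.016 with the block (DESeq2), and -0.16 and -0.055 with the block without pair 1 and pair 3. Xetro.F01987 had 0.09 with group alone, 0.42 with the block (adjusted p = 0.28), 1.22 with the block without pair 1 (adjusted p = 0.0023) and -0.27 without pair 3, all by edgeR. With 1 library or pair left out the values ranged from -1.35 to 1.34 for Xetro.A02849, -0.97 to 2.34 for Xetro.F01987, -2.51 to 0.24 for Xetro.K00998 and -0.077 to 1.46 for Xetro.D01521. The causes were not tested. Depth limits the ratios of the 20 members with 3 or fewer counts in Tet2/Tet3 replicate 2.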
